A study of Mus musculus with 19 samples.

Results

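Described here are 121 transcripts with a moderate number of tags recovered with FMRP in the CA1 region of the mouse hippocampus. Their share of the crosslinked tags was higher in light-activated than in control slices 30 min after activation. Whether each is bound by FMRP above background was not tested. Across the 19 libraries 49932 transcripts had at least 1 tag, a tag being a short RNA fragment recovered with the protein, and 4072 of them had at least 100 tags summed over the 16 opto and control libraries. The members were chosen by 4 measured values: at least 100 and fewer than 800 tags over those 16 libraries, fewer than 10 tags over the 3 noCre libraries, a larger share of the library's tags in opto than in control in all 4 same-numbered pairs at 30 min, and a mean opto share at least 1.5 times the mean control share at 30 min. A block of IDs starting ENSMUST000000823 or ENSMUST000000824 was left out. The same tag and noCre limits held 3710 transcripts, called the window here, so the members were 3.26% of it, and the mirrored rule found 362 window transcripts (9.76%) that were lower in opto at 30 min. Everything the 30 min libraries show about these members is therefore a description, and the 5 min libraries, which the rule used for the tag total and not for direction, are where the same contrast was tested. The main fit of that contrast took its spread from all 16 libraries, the 30 min ones included.

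FMRP is an RNA-binding protein that sits largely on the coding sequence of neuronal mRNAs and is linked to stalled ribosomes and reduced translation. Its loss causes fragile X syndrome, and in hippocampal CA1 neurons it is known for a role in the local protein synthesis that follows synaptic activity. CLIP fixes the protein to the RNA it touches with ultraviolet light, so a transcript's tags rise with its abundance as well as with its occupancy. The libraries measure neither of these alone. In bulk tissue fewer tagged cells and less RNA per cell cannot be told apart either.

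All opto and control libraries came from CA1 of mice labelled Camk2a-Cre x Fmr1 cTag, in which Cre driven by the promoter of Camk2a, a kinase of excitatory neurons, switches on a tagged FMRP. Opto mice carried AAV-ChR2, the light-gated channel channelrhodopsin delivered by a virus, controls carried AAV-Control, and acute slices were crosslinked 5 or 30 min after activation and lysed with cycloheximide, with 4 libraries in each of these 4 groups. The 3 noCre libraries are so named by title and treatment, although their genotype and cell type labels read Cre-positive. The labels give no age and do not say whether replicates were separate animals, so p-values measure only the spread between these libraries, and the 5 min libraries carry a label marking them as new files, so that time and time of deposit cannot be told apart.

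Total tags ran from 20456 to 121972 in the 30 min opto libraries, from 81588 to 192471 in the 30 min controls, from 84614 to 256727 in the 5 min opto libraries, from 40173 to 341445 in the 5 min controls, and from 34 to 5557 in noCre. On the log2 scale the 30 min opto libraries were on average shallower than their controls by a difference of -1.74. The files name transcripts by Ensembl ID and do not pair them with genes, and the gene table used alongside matched 0 of the 4072 IDs. Gene groups, cell type markers and sequences were for that reason not analysed here, and at most 2 IDs in each direction are printed for a comparison.

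The members had low to middling counts within the window. Their summed tags over the 16 libraries ran from 100 to 711 with a median of 155, against a median of 181 in the window. Of the members 83 had fewer than 200 tags, 21 had 200 to fewer than 400, and 17 had 400 or more. These made up 3.99%, 1.94% and 3.10% of the window transcripts in the same bands. Among the 300 transcripts with at least 800 tags and fewer than 10 noCre tags, 5 met the same direction and fold rule. Separately, 5 transcripts with 100 to fewer than 800 tags met everything except the noCre limit. The members therefore came from every band of the window. Most of them had fewer than 200 tags, as did most of the window, 2079 of 3710 transcripts.

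The counts behind the choice were small. A member had 9 to 109 tags, with a median of 22, over the 4 opto libraries at 30 min, and 11 to 218 tags, with a median of 36, over the 4 controls. In opto replicate 1, the shallowest library, 65 of the 121 members had 1 or 2 tags, and 1 tag there was already a share of 0.00489%. The rule requires a tag in every 30 min opto library, so no member was at 0 in any of them. Over the 8 libraries of 5 min the members had 30 to 435 tags each, with a median of 99.

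Some members had equal or nearly equal counts. The 121 members had 117 distinct count profiles, and 7 members shared theirs exactly with another member. With a tolerance of 10% of the larger total, chosen after seeing the data, 50 members fell into 21 sets of nearly identical counts, the largest holding 3 members. How tags were assigned to isoforms is not given in the sources used here, so the values of these members are uncertain. Counting each set once left 92 members, and this count is given beside the results below. Members with similar counts outside the tolerance still count separately. The shares of the window and of all transcripts were not counted once.

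At 30 min the ratio of mean shares ran from 1.503 to 3.53, with quartiles of 1.65 and 1.99 and a median of 1.77, against a median of 0.936 in the window. The members just inside the limit had ratios of 1.503, 1.508 and 1.509, and the transcripts just outside it had 1.498, 1.496 and 1.494. The rule thus separates transcripts with nearly equal values. A further 232 window transcripts reached the fold without being higher in all 4 pairs, and 211 window transcripts were higher in all 4 pairs with or without the fold.

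Summed over the members, the share of each library's tags in the 30 min controls was 0.903%, 1.08%, 1.11% and 1.20%, averaging 1.07% ± 0.123 (SD, n = 4). In the 30 min opto libraries it was 1.95%, 2.02%, 1.63% and 1.98%, averaging 1.89% ± 0.180 (SD, n = 4). At 5 min the controls gave 1.23%, 1.42%, 1.22% and 1.25%, averaging 1.28% ± 0.0922 (SD, n = 4), and the opto libraries 1.14%, 1.28%, 1.11% and 1.24%, averaging 1.19% ± 0.0797 (SD, n = 4). The 30 min groups do not overlap, the contrast on which the members were chosen, while the 5 min groups overlap, and the means of both 5 min groups lie between those of the 30 min groups. The lowest 5 min library, at 1.11%, was below the highest 30 min control, and no 5 min library reached the lowest 30 min opto library.

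**Figure D1:**
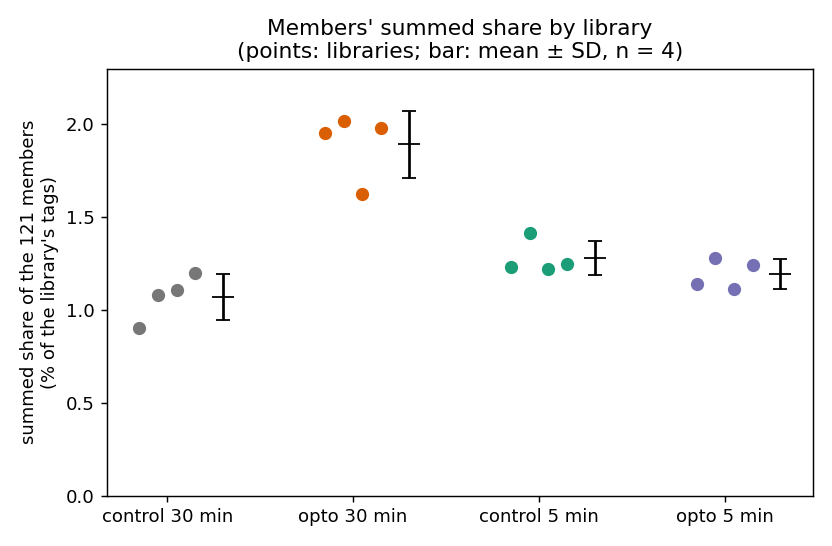
Summed share of the 121 members in each of the 16 opto and control libraries (y axis, percent of the library's tags), by group (x axis), with each library as a point and the group mean and SD. The 30 min opto libraries lie at 1.63% to 2.02% and all other libraries at 0.903% to 1.42%, with the 5 min opto and control libraries overlapping.

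Set against the 5 min libraries, the members stood apart in both 30 min groups. Their mean share in the 30 min controls had a median of 0.810 times the mean of the 8 libraries of 5 min, with 35 of 121 members above it (28.9%), against a median of 0.973 and 44.9% in the window. In the 30 min opto libraries the median was 1.43 times, with 112 of 121 members above it (92.6%), against 0.913 and 40.4% in the window. The 30 min ratio therefore combines lower shares in the 30 min controls with higher shares in the 30 min opto libraries. Both sides entered the rule, and the 2 times also differ in deposit.

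The plot of each member across libraries shows the same layout transcript by transcript. In 33 members (27.3%) all 4 opto libraries at 30 min lay above all 4 controls, against 1.24% of the window, a contrast the rule used. In the other 88 at least 1 opto library did not exceed the highest control, although opto was above control in every same-numbered pair.

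**Figure D2:**
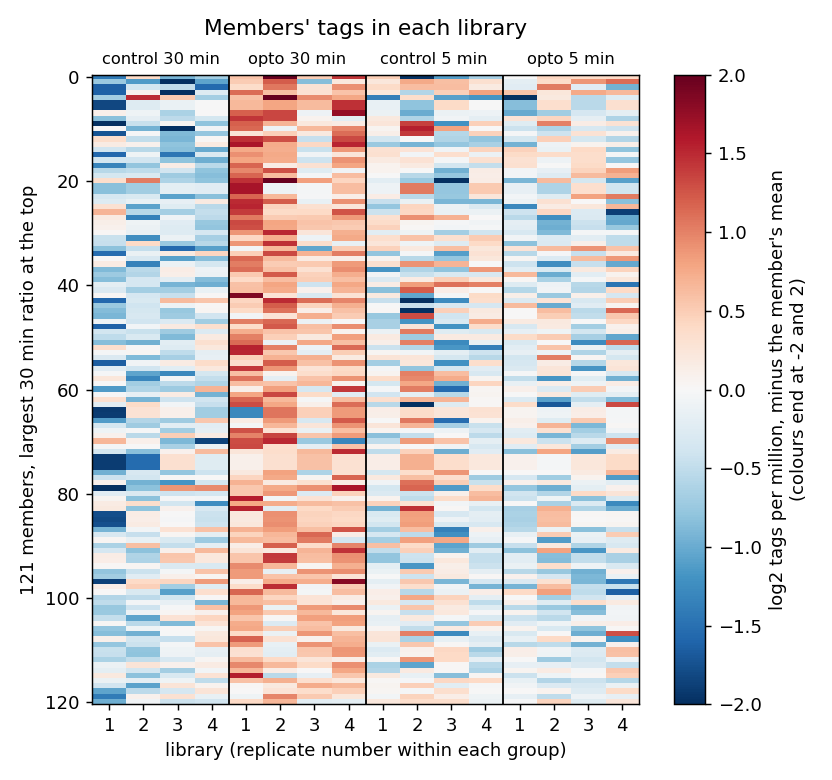
Tags per 1000000 of each of the 121 members (rows, ordered by the 30 min ratio of mean shares) in the 16 opto and control libraries (columns, grouped by treatment and time), as log2 values minus the member's mean, with colours ending at -2 and 2. The 30 min opto columns are high by the rule, and the 5 min columns show no block of either colour across the members.

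The fold at 30 min differed between pairs. The members' median ratio was 1.99 in pair 1, 1.87 in pair 2, 1.47 in pair 3 and 1.63 in pair 4. The opto libraries of these pairs held 20456, 29396, 121972 and 41721 tags. The pair with the deepest opto library thus had the smallest median and the pair with the shallowest the largest. The rule required opto above control in each of these pairs, so this order describes the members and tests nothing about depth. Without pair 1 a ratio of at least 1.5 was kept by 86 members, without pair 2 by 106, without pair 3 by 114 and without pair 4 by 110. With the tags of the 4 libraries pooled in place of the mean of shares, which gives deep libraries more weight, the median was 1.67, the lowest 1.25, and 96 members stayed at 1.5 or above.

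In the fit of all 4072 transcripts (edgeR's quasi-likelihood test on 16 libraries, with Benjamini-Hochberg adjustment), the median log2 fold change of the members at 30 min was 0.74, with a range of 0.37 to 1.46, against -0.05 over all transcripts tested. With the replicate number as a replicate block the median was also 0.74. The test called 1 of 4072 transcripts (0.0246%) at 30 min and 0 of the 121 members, whose smallest adjusted p was 0.501, and 34 members were higher at an unadjusted p under 0.05, against 90 of all 4072 transcripts (2.21%), with 0 members lower against 215. These members were selected on this contrast, so the counts describe them and test nothing. With the log2 of the library total as a covariate the median was 0.67, 119 of 121 members were above 0, and 16 members were higher at an unadjusted p under 0.05, against 53 of all transcripts (1.3%). Single members moved more: the 30 min log2 fold change of ENSMUST00000166381 went from 0.55 to 0.05 with the covariate, and that of ENSMUST00000025000 from 0.80 to 0.12.

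At 5 min the members as a list were centred near 0. The log2 fold change of the 121 members had a median of -0.03, with quartiles of -0.24 and 0.19 and a range of -1.20 to 0.80, against a median of 0.00 over all 4072 transcripts. It was above 0 in 54 members (44.6%) against 50.4% of all transcripts tested. The 92 members counted once had a median of -0.02, with 43 of them above 0. With the replicate block the median was -0.05 and 54 members were above 0.

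No member passed the test at 5 min after adjustment. edgeR's quasi-likelihood test called 0 of 121 members, and 0 of 4072 transcripts (0.0%). The smallest adjusted p among the members was 1.00, and 0 members were called by DESeq2 and by limma voom with quality weights. At an unadjusted p under 0.05, 1 member was higher, against 0.982% of all transcripts, and 11 members (9.09%) were lower, against 0.884%. Counted once per set of nearly identical counts, 8 of 92 were lower. With a library left out 5 to 9 members were lower, against 27 to 51 of all 4072 transcripts. The count was 7 against 27 without control replicate 3, 6 against 34 without opto replicate 2, 5 against 38 without opto replicate 3 and 6 against 39 without opto replicate 4.

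**Figure D3:**
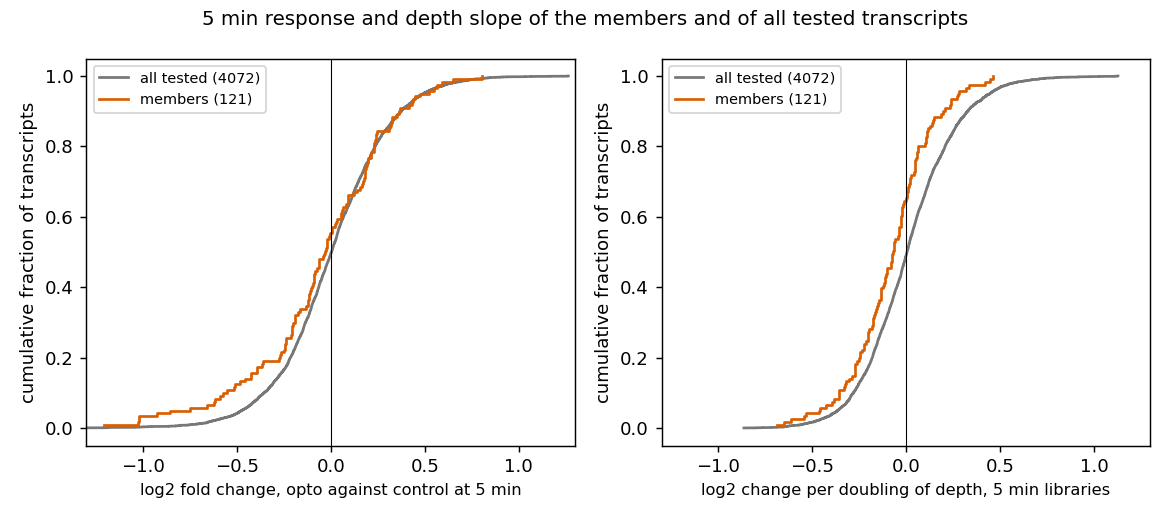
Cumulative fraction of transcripts (y axis) against the log2 fold change of opto over control at 5 min in one panel and against the depth slope in the 5 min libraries in the other (x axes), for the 121 members and for all 4072 transcripts tested. The median fold change was -0.03 for the members and 0.00 for all, and the median slope was -0.07 for the members and 0.01 for all.

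The same-numbered pairs gave the direction at 5 min without a fit. Opto was above control for 44 members in pair 1, 56 in pair 2, 56 in pair 3 and 62 in pair 4, or 36.4%, 46.3%, 46.3% and 51.2% of them. The window had 47.1%, 54.9%, 52.7% and 44.9% in these pairs. The members' share was below that of the window in pairs 1, 2 and 3 and above it in pair 4. The median ratio of the members within the pairs was 0.939, 0.920, 0.935 and 1.03, against 0.980, 1.02, 1.03 and 0.950 in the window.

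The selection rule itself, applied at 5 min, was met by 4 members (3.31%), against 2.88% of the window. The mirrored rule, lower in all 4 pairs and by the same fold, was met by 13 members (10.7%), against 2.35%. Without the fold, 5 members (4.13%) were higher in all 4 pairs against 6.71% of the window, and 18 members (14.9%) were lower in all 4 against 7.01%. These shares were near or below those of the window on the higher side and above them on the lower side, and were not tested. Counted once per set of nearly identical counts, 4, 9, 5 and 13 of 92 members met these 4 conditions.

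The range of the libraries gave the same layout. In 10 members (8.26%) all 4 opto libraries at 5 min lay below all 4 controls, against 1.35% of the window, and in 0 members did all 4 lie above, against 0.863%. Counted once, 7 of 92 lay below. Some of these 7 still had similar 5 min counts, and the window was not counted once. The ratio of mean shares at 5 min ran from 0.378 to 2.00 among the members, with quartiles of 0.799 and 1.15 and a median of 0.957, against a median of 1.00 in the window.

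**Figure D4:**
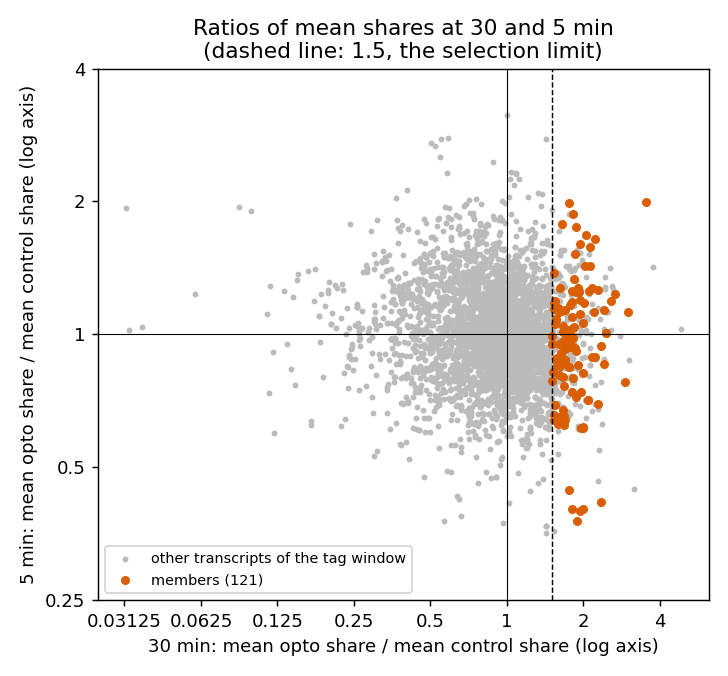
Ratio of mean opto to mean control share at 5 min (y axis, log scale) against the same ratio at 30 min (x axis, log scale) for the 121 members and the other window transcripts, each a point. The members begin at 1.503 on the 30 min axis because the rule sets that edge, and on the 5 min axis they run from 0.378 to 2.00 around a median of 0.957.

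The 11 members that were lower at 5 min at the unadjusted threshold had few tags. Their log2 fold changes ran from -1.20 to -0.59, and each had 68 to 160 tags over the 8 libraries of 5 min, with a median of 74. Their summed share had a mean of 0.0672% in the 30 min controls, 0.125% in the 30 min opto libraries, 0.109% in the 5 min controls and 0.0577% in the 5 min opto libraries. Both directions were set by choice: the rule fixed opto above control at 30 min, and these 11 were picked as lower at 5 min. The 11 made up 8 sets of nearly identical counts, so the sums count some profiles more than once.

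ENSMUST00000112605 had the most tags of the members, 711 over the 16 libraries and 0 in noCre. In counts per 1000000 (CPM, scaled totals of the tested transcripts) its 5 min controls were 421, 618, 487 and 423 and its 5 min opto libraries 393, 324, 416 and 411. All 4 opto libraries were below all 4 controls, by a small margin. Its log2 fold change at 5 min was -0.25 (SE 0.24, edgeR adjusted p 1.00), lower in 4 of 4 pairs. At 30 min its controls were 177, 487, 576 and 411 CPM and its opto libraries 404, 855, 667 and 533 CPM. The opto library with 404 CPM lay below 3 of the 4 controls, and above control replicate 1, its pair.

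ENSMUST00000166381 had 699 tags and 0 in noCre. Its 5 min controls were 444, 618, 451 and 250 CPM and its 5 min opto libraries 245, 761, 341 and 362 CPM. These groups overlap throughout, and opto was higher in 2 of 4 pairs. The log2 fold change at 5 min was -0.02 (SE 0.35, edgeR adjusted p 1.00), and its sign turned with any of 6 of the 8 libraries left out. At 30 min the controls were 565, 678, 308 and 411 CPM and the opto libraries 606, 1305, 475 and 699 CPM, and opto replicate 2 stood far above the rest.

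The member with the smallest p among those lower at 5 min was ENSMUST00000085701, with 100 tags, at the lower edge of the window. Its 5 min controls were 68.3, 103, 134 and 128 CPM, from 18, 3, 11 and 20 tags. Its 5 min opto libraries were 51.1, 56.4, 40.9 and 16.5 CPM, from 10, 4, 6 and 1 tags. Every opto library lay below every control. The log2 fold change was -1.20 (SE 0.40), lower in 4 of 4 pairs, with an adjusted p of 1.00 by edgeR. At 30 min its 4 opto libraries held only 1, 2, 4 and 3 tags.

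ENSMUST00000190288, with 173 tags, had the smallest p among the members higher at 5 min. Its 5 min controls were 87.3, 68.7, 48.7 and 44.8 CPM and its 5 min opto libraries 102, 183, 109 and 82.3 CPM. The groups overlap only in that control replicate 1 lay above opto replicate 4, and opto was higher in 4 of 4 pairs. The log2 fold change was 0.80 (SE 0.36, edgeR adjusted p 1.00). It was also one of the members that the selection rule finds at both times.

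Depth was examined in the 5 min libraries, because 2 of the 30 min opto libraries were the shallowest of the 16. These 2 held 20456 and 29396 tags, while the shallowest 5 min libraries held 40173 and 84614. The 5 min libraries therefore do not reach those depths, and their low end rests on 1 library, control replicate 2. The slope is the log2 change of a transcript's share for each doubling of the library's total tags, fitted with opto and control as separate means. It was negative, meaning a larger share in shallower libraries, in 78 of 121 members (64.5%). The same held for 49.0% of all transcripts tested and 46.8% of the window. The median slope was -0.07, with quartiles of -0.20 and 0.05, against 0.01 over all transcripts. Counted once, 57 of 92 members had a negative slope. With the replicate block beside the depth term 61 of 121 did, so the count depended on the fit. The share over all transcripts in that fit is not given here.

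edgeR's quasi-likelihood test called the slope of 0 members, against 22 of 4072 transcripts (0.54%), and the smallest adjusted p among the members was 0.0726. At an unadjusted p under 0.05 the slope was negative in 9 members (7.44%), against 6.11% of all transcripts, and positive in 0 members, against 5.13%. In the window, 159 of 3710 slopes (4.29%) were negative and 192 positive at that threshold, and 6 were called after adjustment. limma voom with quality weights called 2 members, against 44 of all transcripts. edgeR called 2 without control replicate 3, against 52 of all, and 1 without control replicate 4, against 31. None of these 9 members was among the 11 that were lower at 5 min.

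**Figure D5:**
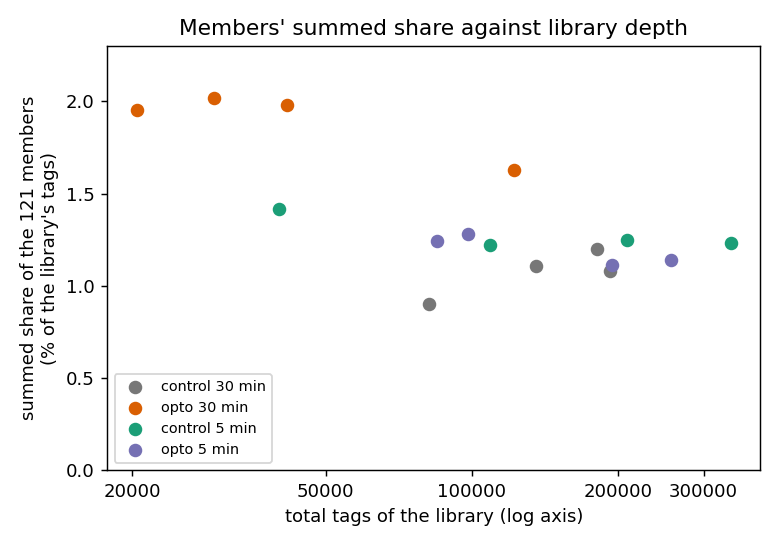
Summed share of the 121 members (y axis, percent of the library's tags) against the library's total tags (x axis, log scale) for the 16 opto and control libraries, coloured by group. The 5 min libraries lie at 1.11% to 1.42% over totals from 40173 to 341445, with the highest share in the shallowest, and the 30 min opto libraries lie at 1.63% to 2.02%.

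Within the 5 min libraries the summed share was highest, at 1.42%, in the shallowest, control replicate 2 with 40173 tags. The deepest, control replicate 1 with 341445 tags, had 1.23%. At 30 min the opto libraries of 41721 and 121972 tags had summed shares of 1.98% and 1.63%. Both were above all 5 min libraries, but the rule chose the members on high 30 min opto shares. The 5 min opto libraries of 84614 and 98257 tags had 1.24% and 1.28%, and those of 194181 and 256727 tags had 1.11% and 1.14%. The 5 min controls of 108993 and 208890 tags had 1.22% and 1.25%. The part of depth in the 30 min values was not tested. The fit with the depth covariate used the contrast that chose the members, and the slopes came from the 5 min libraries.

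ENSMUST00000025000, chosen after its values were seen, had the smallest p for the depth slope. Its 5 min controls were 79.7, 344, 158 and 147 CPM and its 5 min opto libraries 97.0, 141, 95.5 and 197 CPM. The highest value came from control replicate 2, the shallowest library, from 10 tags, and the lowest from control replicate 1, the deepest. The slope was -0.61 per doubling (SE 0.15, edgeR adjusted p 0.0726).

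Background tags were measured in the noCre libraries. In the noCre libraries 70 members had 0 tags and 51 (42.1%) had at least 1, against 40.2% of the window and 35.6% of the 362 transcripts lower at 30 min. The members' 98 noCre tags came almost all from replicate 3, with 94 of its 5557 tags, while replicate 1 held 4 of 887 and replicate 2 held 0 of 34, a depth that allows a share of up to 8.82%. They were 1.51% of all noCre tags, against 1.25% of the pooled 5 min control tags, or 11.3 noCre tags per 1000 control tags of 5 min against 8.30 in the window. The noCre tag limit was part of the rule, so these counts are a description.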

How the data were processed

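FMRP CLIP tags were counted in 19 libraries. The deposited values are whole-number tag counts per transcript, per the file headers, and 1 is the smallest value, so an unlisted transcript was taken as 0. Per the submitters' processing notes, cutadapt, STAR and mm10 were used. Their versions, the annotation, duplicate handling and isoform assignment are not given in the sources used here, and repeated tags between isoforms or kept duplicates would make counts less independent. Groups came from titles and treatment labels.

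Transcripts with at least 100 tags over the 16 opto and control libraries (71.5% to 76.9% of each library's tags) were fitted with edgeR 4.0.16 in R 4.3.3: TMM scaling (factors 0.945 to 1.07), a mean for each group, the quasi-likelihood test, and Benjamini-Hochberg adjusted p under 0.05. This filter keeps all 121 members. The biological coefficient of variation was 0.190. The depth slope was fitted on the 8 libraries of 5 min. Scripts were tested on simulated data. Limits from a count of 0 take 3 tags and cover counting error only. Tables and plots used Python 3.11.15, numpy 2.4.6, pandas 2.3.3 and matplotlib 3.10.9.

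The members, lists and tests were chosen with earlier results of these data known. Where no table pairs IDs with genes, the naming rule takes the 2 members with the most tags and the smallest p in each direction at 5 min. Pairing was looked at in the data: same-numbered opto and control libraries deviated together, with correlations of 0.202 to 0.689 over the 334 transcripts averaging at least 50 tags, and of 0.0753 to 0.298 over all 4072, with 2 of the 8 under 0.1. Differently numbered libraries were not compared, so these values cannot show that the numbers mark pairs. The labels do not state pairing. Alternatives were DESeq2 1.42.0, limma 3.58.1 voom, other scaling, filters and fits, thinning, the replicate block, and leaving out each library.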

Additional observations from a re-analysis of the deposited data

Results flagged for a closer look

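A library far from the others of its group was looked for in 24 groups of values, and 2 were found, where chance gives about 1 in 20. In the 30 min opto group the members' summed share of 1.63% in replicate 3, the deepest of the 4 with 121972 tags, stood below the other libraries. In the 5 min control group the summed share of 1.42% in replicate 2, the shallowest with 40173 tags, stood above the others.

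For 2 of the named members every pair moved one way at 5 min and the opposite way at 30 min, where the rule fixed the direction, and the difference was not tested. ENSMUST00000112605 had a log2 fold change of -0.25 at 5 min and 0.56 at 30 min. ENSMUST00000085701 had -1.20 at 5 min and 0.71 at 30 min.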

How the results depend on the processing

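0 members were called at 5 min under all 19 alternatives, and the median log2 fold change stayed between -0.12 and 0.03. The number of members above 0 at 5 min, 54 of 121 in the main fit, was 45 to 63 of 121 with a library left out. It was 27 of the 79 that pass filterByExpr and 6 of the 19 with a mean of at least 20 tags. Fewer members were tested under these filters, and a smaller fraction of them was above 0. The shares over all transcripts under these filters are not given here. The 11 members lower at an unadjusted p under 0.05, against 36 of 4072 transcripts, became 6 against 22 with DESeq2, 6 against 561 of 49900 with no filter, 6 against 83 after thinning to the shallowest 5 min library and 0 of 19 against 2 of 1170 with a mean of at least 20 tags. With a library left out they were 5 to 9, against 27 to 51 of all transcripts, and with the replicate block 9 against 57. The depth slope was called for 2 members, against 44 of all transcripts, by limma voom, and for 0 to 2, against 7 to 52, with a library left out. It was negative in 51 of 79 members with filterByExpr, and the median slope ran from -0.11 to -0.01. A fold of at least 2 times left 26 members at 30 min, and 0 of the 121 met the rule with that fold at 5 min. Without 30 min pair 1, 2, 3 or 4 the rule found 212, 222, 223 and 244 transcripts, of which 86 to 114 were members. ENSMUST00000166381 turned to 0.04, 0.08 and 0.03 without control replicates 1, 2 and 3, and to 0.22, 0.07 and 0.01 without opto replicates 1, 3 and 4 of 5 min, with a range of -0.41 to 0.22. ENSMUST00000025000 turned to 0.014 without control replicate 2 of 5 min, with a range of -0.59 to 0.014. Where no construction above shows it, the cause was not tested. Depth limits all members: over the 4 opto libraries of 30 min they had a median of 22 tags.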
